A study of Rattus norvegicus with 9 samples.

Results

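The genes described here are the EGF family ligands and receptors, 7 of the 17602 genes in the deposited expression table. They were found by their gene symbols, and all 7 were in the table. The ligands were Hbegf, Tgfa, Btc, Areg and Ereg, and the receptors were Egfr and Erbb2. Expression was measured by RNA sequencing in knees of wild-type male Lewis rats aged 10 to 12 weeks, with 3 libraries in each of 3 groups. The Intact group was synovium, the lining tissue of the joint, from around the medial meniscus of rats without surgery. The Sham group was synovium taken 1 week after the joint capsule had been opened and closed. The pMx group was the tissue regenerating 1 week after partial medial meniscectomy (pMx), in which the ligament holding the meniscus was cut and its anterior part was removed in both knees. The surrounding synovium was trimmed from the pMx tissue, so effects of the surgery and of the tissue taken cannot be told apart between the pMx and Sham groups. All groups were wild type and no group received a drug.

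EGF family ligands are made as proteins anchored in the cell membrane, and proteases cut them to release the active growth factor. The released ligand binds EGFR, which pairs with another EGFR or with ERBB2, a receptor with no ligand of its own, and signals through adaptors to RAS, ERK and AKT. In joint tissues this pathway is known for driving proliferation and migration of fibroblasts and chondrocytes and for producing the lubricating surface layer. HB-EGF and amphiregulin, the products of Hbegf and Areg, also bind heparan sulfate.

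Levels are given in TPM, transcripts scaled by their length to a fixed total, which allows levels of different genes to be compared. Each library summed to about 1000000 TPM, as this scaling fixes, and 15644 to 16125 genes were above 0 TPM. TPM keeps no read numbers, so the depth was unknown. The SDs given are the spread between the 3 libraries of a group. Standard errors, intervals and p-values come from 1 model of the 9 libraries, which pools the spread within the 3 groups and draws on that of other genes. Intact replicate 3 stood apart in skeletal muscle genes, with a summed level of 40580 TPM over 9 muscle markers against 64.9 to 2823 TPM in the other 8 libraries. Prg4 (lubricin), a defining gene of the synovial lining, was between 1084 and 2986 TPM in every library. Among 5 lining markers, Clic5 and Cd55 were lower in every pMx library than in any Sham library, and Htra1 was higher. The ranges of Prg4 and Has1 overlapped between these groups. In the pMx libraries Acan (aggrecan) was at 205.01, 182.29 and 236.05 TPM, against 6.84 to 32.52 TPM in the Sham libraries. Acan was 1 of 6 fibrocartilage and chondrocyte markers, and these did not move together. Sox9 and Comp were likewise higher in every pMx library than in any Sham library. Cilp and Chad were lower in every pMx library than in any Sham library, and the ranges of Col2a1 overlapped. Adipocyte genes were low in the pMx tissue, where their summed level over 6 markers was 366.7 to 620.7 TPM, against 5562 to 6564 TPM in the Sham group and 3478 to 8893 TPM in the Intact group.

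Upstream sequences are shown for the most abundant ligand (Hbegf), for the ligand with the largest relative fall (Tgfa) and for a ligand that was close to 0 throughout (Areg). Each line holds the 250 bases before the RefSeq start of the gene on assembly GRCr8, read 5′ to 3′ on the strand of the gene. Capitals mark matches to the motifs searched on both strands, and a sequence without capitals held none of them. Hbegf lies on the minus strand (chr18:28390221-28390470), Tgfa on the plus strand (chr4:120175469-120175718) and Areg on the minus strand (chr14:17265642-17265891).
Hbegf: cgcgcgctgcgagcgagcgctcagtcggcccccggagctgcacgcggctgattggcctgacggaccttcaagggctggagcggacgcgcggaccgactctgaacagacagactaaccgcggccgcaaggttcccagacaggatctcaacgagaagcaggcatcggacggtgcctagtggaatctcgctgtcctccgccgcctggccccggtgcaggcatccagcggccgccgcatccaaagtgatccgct
Tgfa: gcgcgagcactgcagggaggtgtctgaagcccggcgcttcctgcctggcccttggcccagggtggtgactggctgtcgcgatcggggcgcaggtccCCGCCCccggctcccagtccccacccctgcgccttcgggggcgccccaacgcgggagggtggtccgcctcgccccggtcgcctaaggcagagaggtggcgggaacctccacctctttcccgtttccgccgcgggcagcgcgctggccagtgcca
Areg: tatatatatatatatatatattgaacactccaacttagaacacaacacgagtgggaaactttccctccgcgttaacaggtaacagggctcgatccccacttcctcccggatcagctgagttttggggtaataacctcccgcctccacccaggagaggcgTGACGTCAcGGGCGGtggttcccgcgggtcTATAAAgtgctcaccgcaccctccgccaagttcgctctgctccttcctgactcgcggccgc
The motifs were the AP-1 site TGANTCA, the cAMP response element TGACGTCA, the GC box GGGCGG, the TATA box TATAAA, the TEAD site GGAATG and the EGR1 site GCGTGGGCG. Among 33469 rat promoters of the same length, these letters occurred in 6.34%, 1.59%, 30.5%, 12.9%, 12.1% and 0.478%, respectively. The Areg window held a cAMP response element 91 to 84 bases before the start, a GC box at 82 to 77 bases and a TATA box at 61 to 56 bases. The Tgfa window held a GC box, in capitals on the opposite strand, at 154 to 149 bases. The Hbegf window held none of these letters and was 67.6% G and C, against a median of 51.2% over all promoters. The windows of Btc, Egfr and Erbb2 each held a GC box, and that of Erbb2 also a TEAD site. These matches describe letters in the windows, and binding was not measured.

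Among these 7 genes, Hbegf was the most abundant ligand and Egfr the more abundant receptor in every library. Hbegf made up 98.1 to 99.5% of the summed TPM of the 5 ligands, and Egfr was 2.42 to 8.97 times as abundant as Erbb2. Hbegf and Tgfa were highest in intact synovium and lowest in the regenerating tissue, Egfr followed the same order of group means, and Erbb2 had the opposite order. Because these were bulk samples, fewer cells expressing a gene and less RNA of it per cell cannot be told apart. Each gene was tested in limma on the log2(TPM + 1) scale among 16512 genes that exceeded 0 TPM in 3 or more libraries. With the thresholds of the study, genes past an adjusted p of 0.05 and a log2 fold change of 1 in either direction are called differentially expressed genes (DEGs). Of the 7 genes, 6 were tested, and Ereg was left out because it was above 0 TPM in 1 library only.

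**Figure D1:**
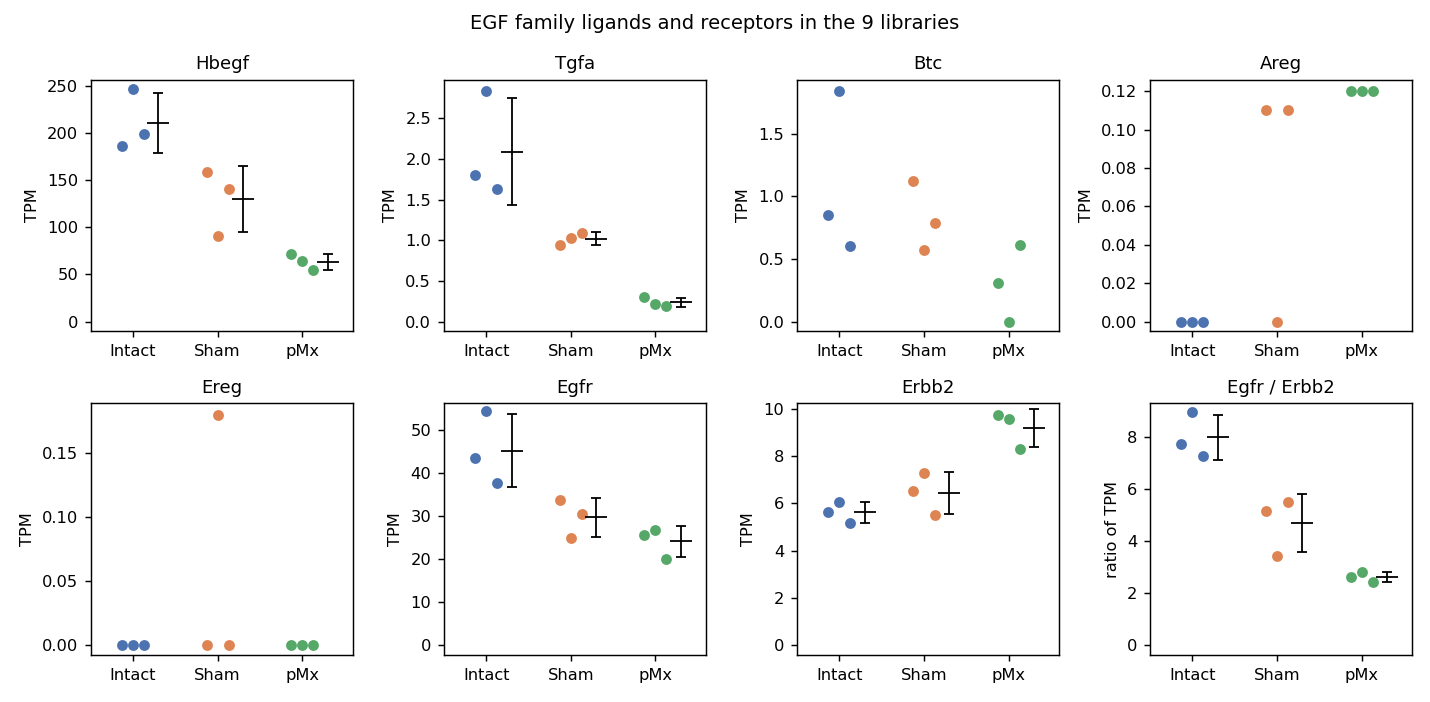
TPM of each of the 7 genes and the ratio of Egfr to Erbb2 (vertical axes, linear and starting near 0) in the Intact, Sham and pMx groups. Each point is a library, and black bars are the mean ± SD of 3 libraries, left out for Btc, Areg and Ereg, which were at 0 in some libraries. The 3 groups do not overlap for Hbegf, Tgfa or the ratio, and Erbb2 is higher in every pMx library than in any other.

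Hbegf (gene identifier 25433) was the only ligand expressed at a high level. Its TPM was 186.19, 247.02 and 198.95 in the Intact libraries, 158.37, 91.25 and 141.18 in the Sham libraries and 71.4, 63.81 and 54.62 in the pMx libraries. The lowest Intact library was above the highest Sham library, and the lowest Sham library was above the highest pMx library. The means were 211 ± 32.1, 130 ± 34.9 and 63.3 ± 8.40 TPM (SD, n = 3 each), so intact synovium held 1.62 times the level of the Sham group and 3.33 times that of the pMx group. In the Intact group Hbegf ranked above 96.3% of the genes in the table, and in the pMx group above 87.4%.

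Hbegf was a DEG in pMx versus Intact, with a log2 fold change of -1.72 (95% interval -2.18 to -1.25, adjusted p = 1.74e-04 from limma). In pMx versus Sham it was lower by a log2 fold change of -1.001 (standard error 0.20, 95% interval -1.47 to -0.53, adjusted p = 0.00547 from limma), and this value lay just past the DEG threshold. Its DEG call was lost with median-of-ratios rescaling (log2 fold change -0.996) and in 3 of the 9 leave-one-out fits, in which each library was dropped in turn, namely those without Sham replicate 1, Sham replicate 3 or pMx replicate 3. Across those 9 fits the log2 fold change ranged from -1.24 to -0.84, and the adjusted p was at most 0.0248. In Sham versus Intact the log2 fold change of -0.72 did not pass the test (95% interval -1.18 to -0.25, adjusted p = 0.0546 from limma).

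Tgfa (24827), which encodes transforming growth factor alpha, was present at a far lower level than Hbegf, but its means differed by a larger ratio. It had 1.8, 2.84 and 1.63 TPM in the Intact libraries, 0.94, 1.03 and 1.09 TPM in the Sham libraries and 0.3, 0.22 and 0.19 TPM in the pMx libraries, with no overlap between any of the groups. The mean of the Sham group was 4.31 times that of the pMx group, and the mean of the Intact group was 8.83 times that of the pMx group. Tgfa fell in all 3 comparisons. Its log2 fold changes were -0.71 for pMx versus Sham (adjusted p = 0.00372), -0.59 for Sham versus Intact (adjusted p = 0.0266) and -1.30 for pMx versus Intact (adjusted p = 7.54e-05, all from limma), and only the last was a DEG. At these levels the pseudocount of 1 compresses the fold change, and with a pseudocount of 0.1 the value in pMx versus Sham was -1.75 and was a DEG. The fall in Sham versus Intact was not past the threshold in 3 of the 9 leave-one-out fits, those without 1 of the Sham libraries (adjusted p up to 0.0867 from limma).

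Btc (64022), the betacellulin gene, had 0.85, 1.84 and 0.6 TPM in the Intact libraries, 1.12, 0.57 and 0.79 TPM in the Sham libraries and 0.31, 0 and 0.61 TPM in the pMx libraries. The groups overlapped. Its log2 fold change in pMx versus Intact was -0.66 (95% interval -1.22 to -0.11, adjusted p = 0.0472 from limma), and 7 of the 9 leave-one-out fits did not pass the test. It passed neither in pMx versus Sham (-0.50, adjusted p = 0.143 from limma) nor between Sham and Intact (-0.17, adjusted p = 0.705 from limma).

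Areg (29183), the amphiregulin gene, was listed at 0 TPM in all Intact libraries. The Sham libraries had 0.11, 0 and 0.11 TPM, and each pMx library had 0.12 TPM. Ereg (59325), the epiregulin gene, was listed at 0.18 TPM in Sham replicate 2 and at 0 in the other 8 libraries. These ligands were therefore close to the lower limit of the table in all groups. The difference of Areg between pMx and Intact was 0.16 on the log2(TPM + 1) scale (adjusted p = 0.0292 from limma), and it did not pass in 6 of the 9 leave-one-out fits. No fold is given against a group listed at 0. In the RefSeq gene order Btc, Areg, Ereg and Epgn, which encodes the ligand epigen, follow each other, and all 4 were below 2 TPM in every library. Hbegf and Tgfa are each on another chromosome.

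Among the receptors, Egfr (24329) was highest in intact synovium. It had 43.51, 54.43 and 37.69 TPM in the Intact libraries, 33.67, 24.92 and 30.43 TPM in the Sham libraries and 25.59, 26.82 and 20.02 TPM in the pMx libraries. Every Intact library was above every Sham and pMx library, whereas the Sham and pMx libraries overlapped. Egfr fell in pMx versus Intact (log2 fold change -0.87, 95% interval -1.25 to -0.49, adjusted p = 0.00243 from limma). Its value for Sham versus Intact was -0.59 (adjusted p = 0.0535 from limma), and in pMx versus Sham it was -0.29 with a 95% interval of -0.67 to 0.09 (adjusted p = 0.216 from limma). The Sham versus Intact difference passed the test without Intact replicate 3, the library rich in muscle transcripts (-0.71, adjusted p = 0.0264 from limma), with median-of-ratios rescaling (adjusted p = 0.0368) and among genes with a mean of at least 1 TPM (adjusted p = 0.0417).

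Erbb2 (24337) was higher in the regenerating tissue. Its TPM was 5.63, 6.07 and 5.19 in the Intact libraries, 6.54, 7.28 and 5.52 in the Sham libraries and 9.75, 9.56 and 8.29 in the pMx libraries. All pMx libraries were above all others, and the Intact and Sham libraries overlapped. The log2 fold change was 0.62 in pMx versus Intact (95% interval 0.35 to 0.89, adjusted p = 0.00226 from limma) and 0.46 in pMx versus Sham (95% interval 0.19 to 0.72, adjusted p = 0.0152 from limma). The rise in pMx versus Sham missed the threshold in 3 of the 9 leave-one-out fits (without Sham replicate 3, pMx replicate 1 or pMx replicate 2), with an adjusted p of at most 0.0581 from limma. Between Sham and Intact, Erbb2 did not pass the test (0.16, adjusted p = 0.406 from limma).

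Egfr and Erbb2 moved in opposite directions in pMx versus Intact, and their ratio separated the groups. The level of Egfr was 7.73, 8.97 and 7.26 times that of Erbb2 in the Intact libraries, 5.15, 3.42 and 5.51 times in the Sham libraries and 2.63, 2.81 and 2.42 times in the pMx libraries. The mean ratio was 7.99 ± 0.881, 4.69 ± 1.12 and 2.62 ± 0.195 (SD, n = 3 each), and the groups did not overlap. The summed level of the 2 receptors was 42.9 to 60.5 TPM in the Intact group, 32.2 to 40.2 TPM in the Sham group and 28.3 to 36.4 TPM in the pMx group. The summed level of the 5 ligands was 189 to 252 TPM, 93.0 to 161 TPM and 55.5 to 72.1 TPM in the same order. These ratios and sums are descriptions of the libraries and were not tested.

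**Figure D2:**
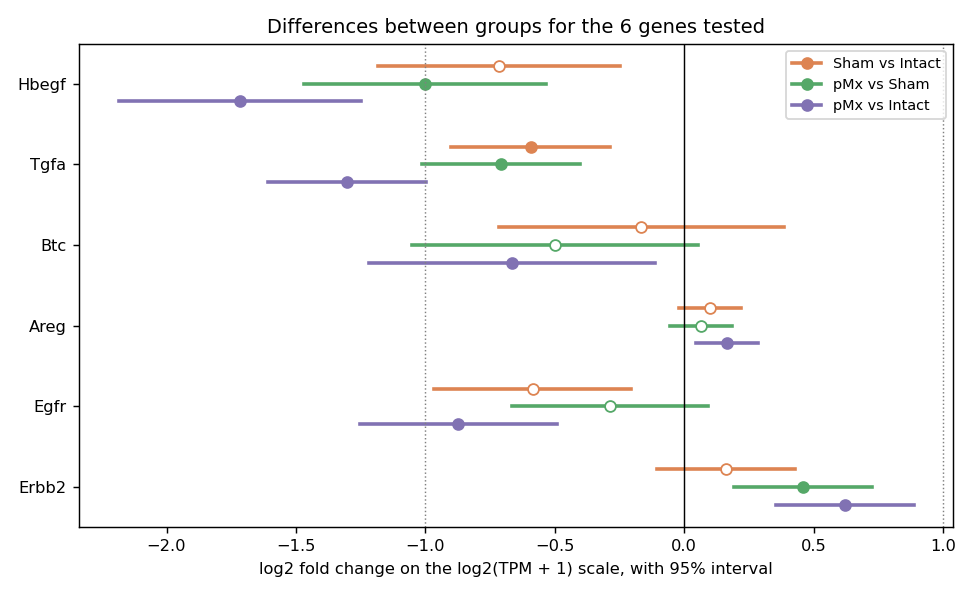
Log2 fold change on the log2(TPM + 1) scale (horizontal axis) of the 6 tested genes in the 3 comparisons, as points with 95% intervals from limma; filled points had an adjusted p below 0.05, and dotted lines mark the DEG threshold of 1 in either direction. Hbegf and Tgfa lie to the left in all comparisons and Erbb2 to the right.

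Counted over the 6 genes, 1 was a DEG lower in pMx versus Sham (Hbegf) and none was higher, where 4.85% of the 16512 genes tested were DEGs that were lower and 3.36% were DEGs that were higher. By the adjusted p alone, 2 genes fell (Hbegf and Tgfa) and 1 rose (Erbb2), against 18.9% and 17.7% of all genes. In Sham versus Intact limma called 0 DEGs among the 6, against 0.533% lower and 1.42% higher over all genes. By the adjusted p alone 1 gene (Tgfa) fell there, against 5.97% of all genes, and none rose, against 6.73%. At an unadjusted p below 0.05, 3 of the 6 were lower (Hbegf, Tgfa and Egfr) and 0 were higher, where 15% and 13.8% of all genes passed that limit. In pMx versus Intact, 2 were DEGs that were lower (Hbegf and Tgfa) and none was a higher DEG, against 7.89% and 6.4% of all genes. By the adjusted p alone, 4 fell (Hbegf, Tgfa, Egfr and Btc) and 2 rose (Erbb2 and Areg), against 27.1% and 23.4%. The median log2 fold change of the 6 genes was -0.39 in pMx versus Sham, -0.38 in Sham versus Intact and -0.77 in pMx versus Intact, and the median over all genes was -0.01, -0.02 and -0.03. The pMx versus Sham and pMx versus Intact comparisons share the pMx libraries, and the comparisons with Intact share the Intact libraries, so they are not independent of each other.

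Some genes of the synovial lining fell beside Hbegf and Egfr, and others did not. Of the 5 lining markers, all in the table and none at 0, Clic5, Has1 and Cd55 were DEGs that were lower in pMx versus Intact, Prg4 fell without reaching the DEG threshold, and Htra1 rose. In pMx versus Sham only Clic5 and Cd55 were DEGs that were lower, and Prg4 had means of 1315 and 1453 TPM in the Sham and pMx groups. Over all genes, 7.89% were DEGs that were lower in pMx versus Intact and 4.85% in pMx versus Sham. Clic5, which encodes a chloride channel protein marking lining fibroblasts, had 448.42, 502.78 and 436.02 TPM in the Intact libraries, 308.02, 156.9 and 253.14 TPM in the Sham libraries and 17.25, 13.08 and 8.86 TPM in the pMx libraries. In the Sham group, replicate 2 was lowest and replicate 1 highest for Clic5, Hbegf and Egfr, whereas Tgfa was lowest in replicate 1. In the Intact group, replicate 3 was lowest for Clic5 and Egfr, but replicate 1 for Hbegf. In the pMx group Hbegf had the order of Clic5, whereas Egfr was highest in replicate 2. Over the whole list the summed level was 3588 to 4744 TPM in the Intact group and 2486 to 2978 TPM in the Sham group. It was 2597 to 3536 TPM in the pMx group, so the sum did not fall further after Sham as Hbegf did. This sum hides opposite members and is weighted by Prg4 and Htra1. Both had higher means in pMx than in Sham tissue, with 1566 against 903.8 TPM for Htra1. Lower pMx means were found for Clic5 (13.06 against 239.4 TPM), Cd55 (86.34 against 177.1 TPM) and Has1 (32.09 against 44.99 TPM). The RNA integrity grades given by the study were also ordered, lowest in the Intact group and highest in the pMx group. The part of lining cells or RNA integrity in the levels of the EGF family genes was not tested.

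**Figure D3:**
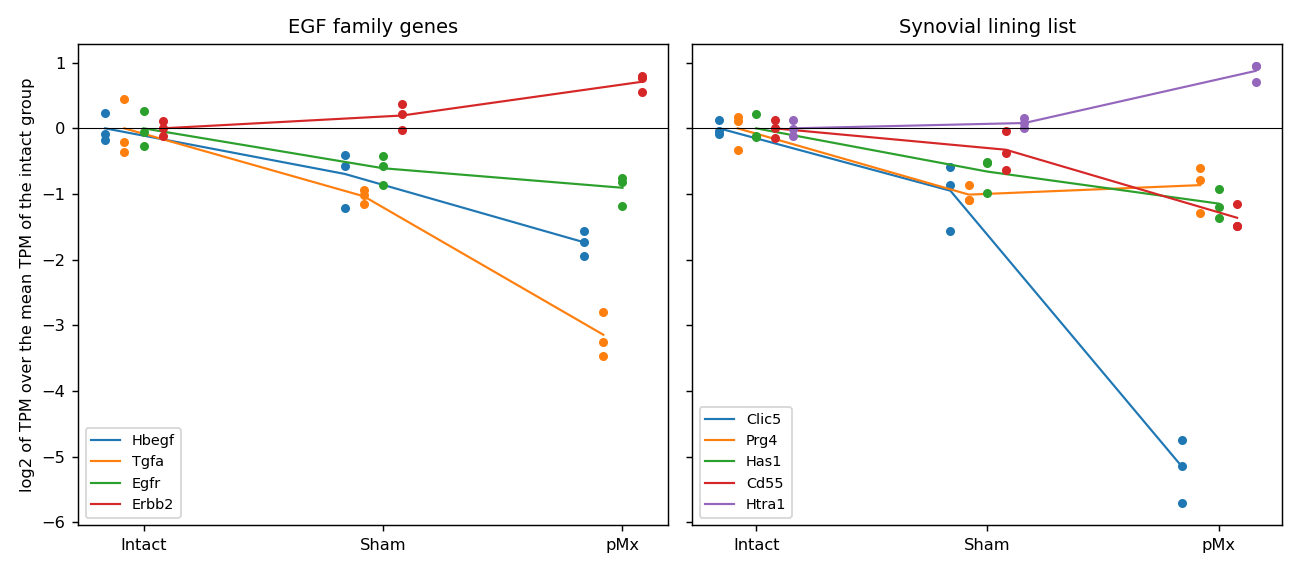
Log2 of the TPM of each library over the mean TPM of the Intact group (vertical axis) for 4 EGF family genes (left) and the 5 synovial lining markers (right), with points for libraries and lines through the group means. The pMx points of Hbegf, Tgfa and Egfr lie below 0, as do those of Clic5, Prg4, Has1 and Cd55, while Erbb2 and Htra1 lie above 0 in the pMx group.

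Markers of other cell types were read beside these values. Of 9 keratinocyte markers 6 were in the table. Krt14 and Krt15 were at 0 in all libraries but pMx replicate 1 (0.09 and 0.08 TPM), and the summed level was 2.51 to 5.68 TPM in the Intact group, 2.59 to 4.07 TPM in the Sham group and 0.62 to 1.09 TPM in the pMx group. The 7 macrophage markers in the table (of 8) summed to 909.8 to 1455 TPM in the Intact group, 1544 to 1606 TPM in the Sham group and 1042 to 1458 TPM in the pMx group, and did not have the order of Hbegf. The sum hides opposite members. Cd68 was a DEG that was higher and Cd163 a DEG that was lower in pMx versus Intact, against 6.4% and 7.89% of all genes. Of 7 mast cell markers, 6 were DEGs that were lower in pMx versus Sham, against 4.85% of all genes. The sum of the 7 was 9.64 to 13.72 TPM in the pMx group, 205.6 to 302.8 TPM in the Sham group and 68.2 to 199.0 TPM in the Intact group. It was highest in the Sham group, unlike Hbegf. The 6 granulocyte markers did have the order of Hbegf, with sums of 66.4 to 192.4 TPM in the Intact group, 40.6 to 50.6 TPM in the Sham group and 9.16 to 25.1 TPM in the pMx group that did not overlap. Of them, 4 were DEGs that were lower and 1 was a DEG that was higher in pMx versus Intact, against 7.89% and 6.4% of all genes. Of the 6, 1 was at 0 in every pMx library. The 6 endothelial markers summed to 671 to 872 TPM in the Intact group, 556 to 590 TPM in the Sham group and 439 to 558 TPM in the pMx group. Tek, Vwf and Emcn had the order of Hbegf without overlap between groups. Pecam1 had that order of means with overlap, and Cdh5 and Kdr had higher means in the pMx group than in the Sham group. The 6 fibroblast markers were higher in sum after surgery, at 9698 to 14340 TPM in the Intact group, 22440 to 26680 TPM in the Sham group and 54960 to 59400 TPM in the pMx group. Of them, 4 matrix genes were DEGs that were higher in pMx versus Intact, against 6.4% of all genes. The others were Dcn, with means of 4826, 4683 and 2441 TPM in the Intact, Sham and pMx groups, and Pdgfra, with 70.25, 84.57 and 79.83 TPM. The part of these cells in the results was not tested.

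Some genes had profiles close to those of Hbegf and Tgfa over the 9 libraries, measured as the root-mean-square difference of log2(TPM + 1) values centred on their mean, among 13200 genes with a mean of at least 1 TPM. The nearest to Hbegf was Dlx3, a homeobox transcription factor, with a difference of 0.097 and mean levels of 63.0, 39.0 and 19.3 TPM in the Intact, Sham and pMx groups. Npy2r, a neuropeptide Y receptor gene, and LOC100361018 followed, with 0.132 and 0.147. In the same order of groups, the means of Npy2r were 2.37, 1.06 and 0 TPM, near the lower limit of the table. Those of LOC100361018 were 16.5, 9.82 and 5.15 TPM. The nearest to Tgfa were Rbpms2, Cadps2 and Plcb4, with differences of 0.076, 0.081 and 0.088. Tgfa had means of 2.09, 1.02 and 0.237 TPM in the Intact, Sham and pMx groups. Those of Rbpms2 were 19.6, 11.9 and 7.87 TPM, of Cadps2 4.64, 2.77 and 1.21 TPM and of Plcb4 42.4, 25.2 and 15.6 TPM. The pseudocount of 1 compresses changes at low levels, so profiles close on this scale can differ in their ratios of TPM. These genes were found by their likeness, which is a description of the 9 libraries.

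The rest of the family was measured for 7 of 8 genes, and Nrg3 was not analysed here. Nrg4, a neuregulin ligand of ERBB4 known as a product of fat tissue, changed most. It had 4.49, 3.18 and 3.14 TPM in the Intact libraries, 5.85, 6.39 and 4.87 TPM in the Sham libraries and 0.66, 0.32 and 0.5 TPM in the pMx libraries. The groups did not overlap, and their order was Sham, Intact and pMx. Nrg4 was a DEG in pMx versus Sham (log2 fold change -2.17, adjusted p = 3.63e-05 from limma) and in pMx versus Intact (-1.62, adjusted p = 4.26e-05), and rose by 0.55 in Sham versus Intact (adjusted p = 0.0482), a rise that passed in 1 of the 9 leave-one-out fits. All 6 adipocyte markers were DEGs that were lower in both comparisons with pMx. Over all genes, 4.85% were so in pMx versus Sham and 7.89% in pMx versus Intact. The part of adipocytes in the value of Nrg4 was not tested.

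Erbb3, a neuregulin receptor that pairs with ERBB2, had 14.64, 10.67 and 7.8 TPM in the Intact libraries, 12.79, 8.88 and 10.65 TPM in the Sham libraries and 6.38, 7.13 and 5.63 TPM in the pMx libraries. Every pMx library was below the others. Erbb3 fell in pMx versus Sham (log2 fold change -0.67, adjusted p = 0.0374 from limma) and in pMx versus Intact (-0.67, adjusted p = 0.0268 from limma), in the opposite direction to Erbb2. These passed in 3 and 5 of the 9 leave-one-out fits. None of 5 Schwann cell and nerve markers was at 0 in any library. Against 4.85% of all genes, 4 of the 5 were DEGs that were lower in pMx versus Sham. Among them was Sox10, a transcription factor of Schwann cells, whose Sham libraries had 2.62, 2.47 and 2.48 TPM and whose pMx libraries had 0.16, 0.31 and 0.27 TPM. The summed level of the 5 nerve markers was 160.1 to 326.7 TPM in the Intact group, 231.7 to 272.8 TPM in the Sham group and 72.6 to 90.9 TPM in the pMx group, and their part in the value of Erbb3 was not tested.

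The other family genes were low. Nrg1, a ligand of ERBB3 and ERBB4, rose in pMx versus Intact, from 0.11, 0.24 and 0.14 TPM to 1.9, 1.33 and 0.63 TPM (log2 fold change 0.94, adjusted p = 0.00248 from limma), and in pMx versus Sham (0.93, adjusted p = 0.00402 from limma). Neither value reached the DEG threshold, but with a pseudocount of 0.1 both did, at 2.31 and 2.29, and the mean of the pMx group was 7.88 times that of the Intact group. Egf had 1.2, 1.2 and 3.45 TPM in the Intact libraries, 0.9, 1.3 and 1.06 TPM in the Sham libraries and 0.65, 0.88 and 0.53 TPM in the pMx libraries, with the highest value in the library rich in muscle transcripts. Egf fell in pMx versus Intact (log2 fold change -0.73, adjusted p = 0.0407 from limma) but passed in only 3 of the 9 leave-one-out fits. Epgn, Nrg2 and Erbb4 were at most 0.57, 0.37 and 0.05 TPM and passed in no comparison.

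Of 10 genes of ligand shedding, 2 were DEGs that were higher in pMx versus Sham and none was lower, against 3.36% and 4.85% of all genes. Adam12, a metalloprotease able to cut HB-EGF, changed most. It had 2.78, 2.06 and 1.95 TPM in the Intact libraries, 20.44, 25.35 and 10.8 TPM in the Sham libraries and 121.32, 121.53 and 117.96 TPM in the pMx libraries. The groups were far apart, in the reverse order of Hbegf. Its log2 fold changes were 2.69 for pMx versus Sham (adjusted p = 1.34e-04), 2.54 for Sham versus Intact (adjusted p = 0.00239) and 5.22 in pMx versus Intact (adjusted p = 2.98e-06, all from limma). Adam8, a metalloprotease of leukocytes and chondrocytes, rose by 1.08 in pMx versus Sham (adjusted p = 0.00112 from limma), from 2.27, 2.72 and 2.31 TPM to 5.79, 5.56 and 7.48 TPM.

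Adam17, the main sheddase of EGFR ligands, did not follow Adam12. It had 63.26, 65.69 and 51.65 TPM in the Intact libraries, 59.08, 57.74 and 51.3 TPM in the Sham libraries and 52.13, 55.34 and 54.26 TPM in the pMx libraries, with a log2 fold change of -0.15 in pMx versus Intact (95% interval -0.37 to 0.07, adjusted p = 0.229 from limma). Timp3, which encodes the tissue inhibitor of ADAM17, fell from 387.14, 416.99 and 317.56 TPM in the Intact libraries to 261.88, 256.87 and 255.91 TPM in the Sham libraries and 114.9, 138.37 and 137.06 TPM in the pMx libraries, without overlap. It was a DEG in pMx versus Intact (log2 fold change -1.51, adjusted p = 1.15e-05 from limma), and in pMx versus Sham its value of -0.99 was short of the DEG threshold. Rhbdl2, an intramembrane protease, rose by 1.02 in pMx versus Intact (adjusted p = 0.00809 from limma), a DEG call lost in 3 of the 9 leave-one-out fits. By the adjusted p alone, 3 of the 10 genes rose and 3 fell in pMx versus Sham, 2 rose and 1 fell in Sham versus Intact and 4 rose and 3 fell in pMx versus Intact. The shares of all genes that rose and fell by this limit were 17.7% and 18.9%, 6.73% and 5.97%, and 23.4% and 27.1% in the same comparisons. The median log2 fold change of the list was 0.02, 0.03 and 0.00 in these comparisons, close to that of all genes.

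Inhibitors of the receptors and of the pathway were next. Of 20 such genes 19 were tested, and by the adjusted p alone 4 rose and 3 fell in pMx versus Sham, 0 rose and 3 fell in Sham versus Intact, and 5 rose and 6 fell in pMx versus Intact. In pMx versus Sham these numbers were near the shares of all genes that rose (17.7%) and fell (18.9%), and the shares were 6.73% and 5.97% in Sham versus Intact and 23.4% and 27.1% in pMx versus Intact. Lrig1, a membrane protein that promotes degradation of EGFR family receptors, had 22.63, 30.2 and 18.88 TPM in the Intact libraries, 14.49, 14.94 and 18.17 TPM in the Sham libraries and 7.37, 7.31 and 8.11 TPM in the pMx libraries. It was a DEG in pMx versus Intact (log2 fold change -1.51, adjusted p = 9.04e-05 from limma). Spry1, a Sprouty inhibitor of RAS and ERK signalling, was lower in the Sham group (9.35, 8.97 and 12.14 TPM) than in the Intact group (16.21, 19.04 and 19 TPM), and lower again in the pMx group (7.08, 5.53 and 5.74 TPM). It fell by a log2 fold change of -1.43 in pMx versus Intact (adjusted p = 4.92e-05 from limma). Spred3, a Sprouty-related inhibitor, moved the other way, from 5.34, 5.63 and 4.46 TPM in the Sham libraries to 11.12, 9.97 and 13.19 TPM in the pMx libraries (1.01, adjusted p = 7.33e-04 from limma), a value just past the DEG threshold that dropped below it without Sham replicate 3 or pMx replicate 3. None of the 19 was a DEG in Sham versus Intact by limma, where 1.42% of all genes were higher and 0.533% lower DEGs. At an unadjusted p below 0.05, 1 was higher and 5 were lower there, against 13.8% and 15% of all genes. The median log2 fold change of the inhibitors was 0.09, -0.06 and -0.02 in pMx versus Sham, Sham versus Intact and pMx versus Intact.

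No DEG was found by limma among the 23 adaptors and kinases that carry the signal from the receptors, such as Grb2, Shc1, the RAS genes and the ERK genes, in any of the 3 comparisons. Over all genes, the shares of higher and lower DEGs were 3.36% and 4.85% in pMx versus Sham and 1.42% and 0.533% in Sham versus Intact. They were 6.4% and 7.89% in pMx versus Intact. By the adjusted p alone, 6 rose and 4 fell in pMx versus Sham, 1 rose and 2 fell in Sham versus Intact and 5 rose and 7 fell in pMx versus Intact. At an unadjusted p below 0.05 the numbers were 6 and 7, 4 and 5, and 5 and 9, against 22.1% and 23.5%, 13.8% and 15%, and 26.1% and 30.3% of all genes. The shares of all genes by the adjusted p were those given for the inhibitors. The median log2 fold change was 0.04, -0.08 and -0.07. The summed level of the 23 genes was 1348 to 1454 TPM in the Intact group. It was 1371 to 1421 TPM in the Sham group and 1513 to 1535 TPM in the pMx group. The sum did not fall as that of the ligands did, but it is weighted by the most abundant genes. By the adjusted p, more of the 23 fell (7) than rose (5) in pMx versus Intact.

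Transcripts known to respond to ERK were counted in the same way. Of 14, by the adjusted p alone, 5 rose and 2 fell in pMx versus Sham, 2 rose and 1 fell in Sham versus Intact, and 5 rose and 6 fell in pMx versus Intact. The shares of all genes were 17.7% and 18.9%, 6.73% and 5.97%, and 23.4% and 27.1%. Fosl1, which encodes the AP-1 subunit FRA1, had 0.36, 0.32 and 0.46 TPM in the Intact libraries, 1.14, 1.09 and 0.4 TPM in the Sham libraries and 4.59, 4.19 and 5.21 TPM in the pMx libraries. It was a DEG in pMx versus Sham (log2 fold change 1.62, adjusted p = 1.59e-04 from limma) and in pMx versus Intact (2.03, adjusted p = 1.91e-05 from limma). Etv4, an ETS transcription factor, Ier3, an early response gene, and Plaur, the urokinase receptor gene, were DEGs that were higher in pMx versus Intact, with log2 fold changes of 1.17, 1.17 and 1.14.

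The ETS factor Etv1 went the opposite way to Etv4, from 15.39, 11.83 and 14.88 TPM in the Sham libraries to 5.7, 4.6 and 4.96 TPM in the pMx libraries (log2 fold change -1.30, adjusted p = 1.37e-04 from limma). Egr1, an immediate early transcription factor, had 86.33, 133.61 and 74.8 TPM in the Intact libraries, 67.7, 68.33 and 60.94 TPM in the Sham libraries and 34.77, 25.33 and 51.92 TPM in the pMx libraries, and was a DEG in pMx versus Intact (-1.39, adjusted p = 0.00273 from limma). None of the 14 was a DEG in Sham versus Intact by limma, where 1.42% of all genes were higher and 0.533% lower DEGs. At an unadjusted p below 0.05, 4 were higher and 4 lower there, against 13.8% and 15% of all genes. The median log2 fold change of the 14 was 0.06, -0.16 and -0.24 in pMx versus Sham, Sham versus Intact and pMx versus Intact.

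**Figure D4:**
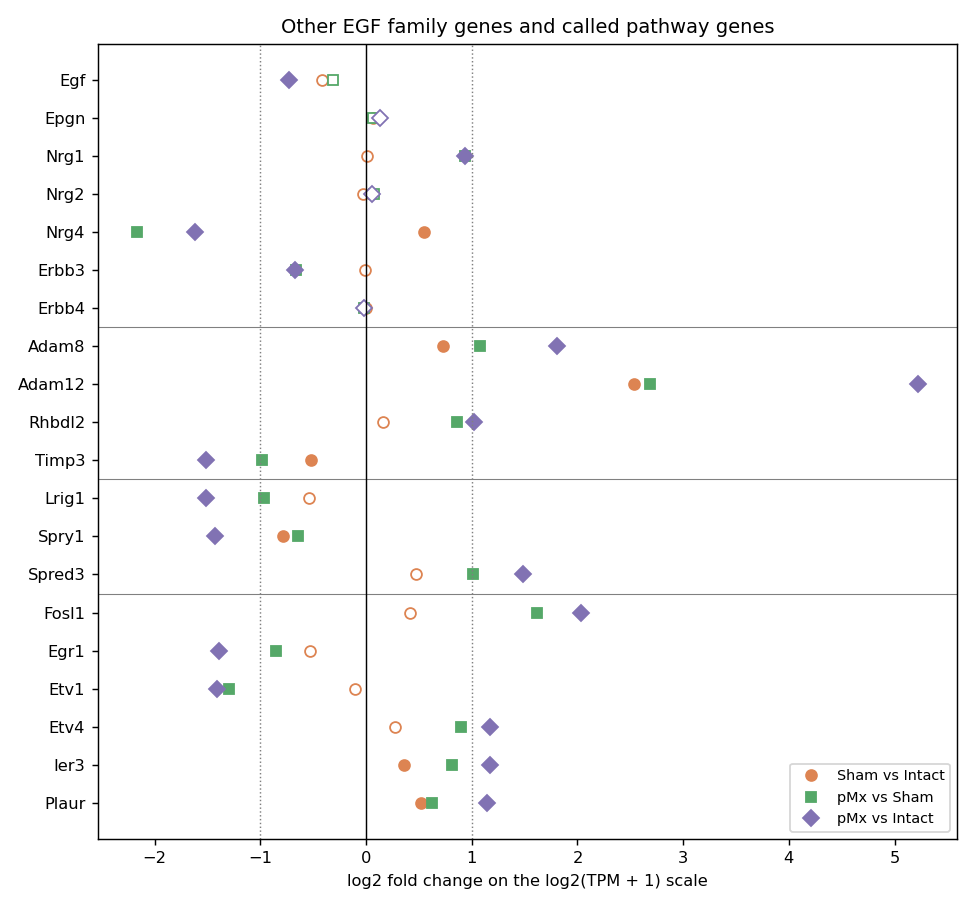
Log2 fold change on the log2(TPM + 1) scale (horizontal axis) in the 3 comparisons for the 7 other family genes measured and the pathway genes that were a DEG in at least 1 comparison; filled symbols had an adjusted p below 0.05, dotted lines mark the DEG threshold and horizontal lines separate the lists. Adam12 lies farthest to the right, at 5.22 in pMx versus Intact, and Nrg4 farthest to the left, at -2.17 in pMx versus Sham.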

How the data were processed

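RNA from rat knees was sequenced on the DNBSEQ platform after oligo-dT selection, with 3 biological replicate libraries in each of the Intact, Sham and pMx groups. Groups and replicate numbers came from the sample titles. The sources used here do not state whether libraries of a group came from separate animals or pools, so p-values measure the spread between these libraries. The authors deposited TPM values, which were made with the BGI Dr. Tom system. The submitters' processing notes list HISAT2 2.0.4 and the build mRatBN7.2. The counting tool, annotation and filters are not given in the sources used here. Whole-transcript TPM shares 1 fixed total, so a large rise in abundant genes lowers the others.

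The deposited TPM were turned into log2(TPM + 1) for the 16512 genes exceeding 0 TPM in 3 or more libraries. Group means were estimated in 1 linear model of the 9 libraries with limma 3.58.1 (R 4.3.3), using lmFit and trended eBayes, and p-values were adjusted by Benjamini-Hochberg over all genes tested in a comparison. The calculation was tested on simulated data. The genes described, the pathway lists and the marker lists were chosen with earlier results of these data known. Genes were named if they were among the 7, belonged to the rest of the family, were DEGs of a pathway list in any comparison, were 1 of the 3 nearest profiles to a DEG of the family or were genome neighbours. Adam17 and the cell type markers named fall outside this rule and were chosen after their values were seen. RefSeq promoter sequences of GRCr8 matched 6 of the 7 genes, all but Ereg, and RefSeq gene order was used for neighbours only. The pseudocount, the filter, the scaling, the samples fitted, a replicate block, the fold-change threshold and each library were varied. Protein and staining measurements were not analysed here. A nerve marker was left out of its list and is not reported here.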

Additional observations from a re-analysis of the deposited data

How the results depend on the processing

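Without a fold-change threshold, the genes called numbered 6046 in pMx versus Sham, 2097 in Sham versus Intact and 8350 in pMx versus Intact, of which 3, 1 and 6 were among the EGF family genes described. The numbers with the threshold were 1355, 323 and 2360 for all genes, and 1, 0 and 2 for the family. With a pseudocount of 0.1, 2229 genes were called in pMx versus Sham, including 2 of the family (Hbegf and Tgfa), and 612 in Sham versus Intact. With median-of-ratios rescaling 0 of the family were called in pMx versus Sham. In fits that dropped each library in turn, the family count in pMx versus Sham was 0 to 1, and the count over all genes in Sham versus Intact was 193 to 423, the lowest without Sham replicate 2. A fit that left out a library kept at least 2 in each group. Of 102 log2 fold changes of the family under the other settings, 94 stayed on the same side of the threshold, as did 142 of 162 with a library left out, and none that passed the test changed sign. Btc in pMx versus Intact was not past the threshold with a pseudocount of 0.1, without the filter, on 6 libraries alone or with the block (adjusted p = 0.0515 to 0.0934 from limma), and neither was Tgfa in Sham versus Intact on 6 libraries (adjusted p = 0.0837). Hbegf in Sham versus Intact passed among genes with a mean of at least 1 TPM (adjusted p = 0.0421). The cause of these changes was not tested.

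Replicate numbers recur across the groups. After subtraction of group means, libraries with the same number had correlations across genes of 0.035, 0.368 and 0.485 between pMx and Sham. They were 0.002, -0.399 and -0.493 between Sham and Intact, and -0.378, -0.439 and -0.664 between pMx and Intact. What else libraries of the same number share is not stated in the sources used here, and these correlations cannot show it. With the replicate block, 1, 0 and 2 of the family were DEGs in pMx versus Sham, Sham versus Intact and pMx versus Intact, and among their log2 fold changes the block moved only that of Btc in pMx versus Intact to the other side of the threshold (adjusted p = 0.0934 from limma). The settings were also run for the other named pathway genes, a choice made after seeing the data. Of their 21 DEG calls, 18 were kept in every setting, and those of Adam8 and Spred3 in pMx versus Sham and of Rhbdl2 in pMx versus Intact were lost with 1, 2 and 3 libraries left out in turn. No setting moved the median of all genes by more than 0.1 on the log2 scale. With no read numbers in TPM, values such as those of Areg and Ereg cannot be given a counting error.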
